A study of Homo sapiens with 4 samples.

Results

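The genes described here are 42 genes that mark mesenchymal cells and the basal B class of breast cancer lines, taken by name from a list. No measured value was used to pick them, but the list was chosen with earlier results of these data known. They were looked up as the nearest gene of each peak in 1 PML ChIP-seq peak table, in which 35 of the 42 were named, by 162 of the 68937 peaks (0.235%). The 42 fall into 7 transcription factors of the epithelial to mesenchymal transition (EMT), 7 other transcription and chromatin factors, 10 receptors and surface proteins, 6 secreted and matrix proteins, and 12 proteins of the cytoskeleton, the membrane and calcium binding.

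The peaks come from PML chromatin immunoprecipitation in MDA-MB-231, a long-established cell line from a human triple-negative breast tumour, with no treatment or genotype change given in the labels. The 2 PML libraries were set against 2 input libraries. Duplicates were merged before peaks were called, so no value below has a replicate error and no difference could be tested over samples. Read depth is unknown from the table, and each score is the authors' own, given as a whole number without a stated scale; it is used only to rank and describe peaks within the list. The table holds no expression values, so whether these cells express the genes was not measured.

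PML is the protein that builds PML nuclear bodies, domains of the cell nucleus that gather SUMO-modified proteins and touch nearby chromatin. EMT is the programme by which epithelial cells lose cell contacts and become motile; SNAI, ZEB and TWIST proteins drive it by repressing epithelial genes such as the one for E-cadherin, and TGF-beta is a classic inducer. Basal B lines, of which MDA-MB-231 is a standard example, are breast cancer lines with high vimentin, CD44, AXL and caveolin and low levels of luminal keratins and E-cadherin.

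The promoter sequences of 7 of the genes are shown because the PML peaks described below lie over 5 of them and leave the other two free. BHLHE40, EGFR, ANXA2 and CDH2 had the 4 highest promoter scores, VIM is the gene of the classical mesenchymal filament, and ZEB1 is the first EMT factor without a promoter peak under its own name. FN1 was added after the values were seen, as a gene with no peak anywhere over it. Each stretch holds 250 bases before and 50 bases after a start listed by RefSeq for GRCh38.p14, 5′ to 3′ on the gene's strand. Capitals mark the GC box GGGCGG and the AP-1 motif TGACTCA on either strand and the TATA box TATAAA on the gene's strand; CACCTG and ACTACA were also searched and occur in none of the 7. The windows are chr3:4979187-4979486 on the plus strand for BHLHE40, chr7:55018767-55019066 on the plus strand for EGFR, chr15:60397937-60398236 on the minus strand for ANXA2 and chr18:28177081-28177380 on the minus strand for CDH2. The others are chr10:17227991-17228290 on the plus strand for VIM, chr10:31320304-31320603 on the plus strand for ZEB1 and chr2:215436019-215436318 on the minus strand for FN1.
BHLHE40: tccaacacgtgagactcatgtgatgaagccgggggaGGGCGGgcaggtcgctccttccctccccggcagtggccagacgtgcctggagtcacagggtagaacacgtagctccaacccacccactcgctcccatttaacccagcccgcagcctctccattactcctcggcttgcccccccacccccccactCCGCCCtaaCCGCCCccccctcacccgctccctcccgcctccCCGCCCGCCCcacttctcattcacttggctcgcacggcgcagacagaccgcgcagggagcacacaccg
EGFR: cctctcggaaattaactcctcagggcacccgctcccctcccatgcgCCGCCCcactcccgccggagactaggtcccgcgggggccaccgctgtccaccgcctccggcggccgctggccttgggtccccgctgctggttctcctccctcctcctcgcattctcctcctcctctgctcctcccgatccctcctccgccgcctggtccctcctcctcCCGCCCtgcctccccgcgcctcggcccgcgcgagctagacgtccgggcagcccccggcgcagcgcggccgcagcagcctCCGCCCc
ANXA2: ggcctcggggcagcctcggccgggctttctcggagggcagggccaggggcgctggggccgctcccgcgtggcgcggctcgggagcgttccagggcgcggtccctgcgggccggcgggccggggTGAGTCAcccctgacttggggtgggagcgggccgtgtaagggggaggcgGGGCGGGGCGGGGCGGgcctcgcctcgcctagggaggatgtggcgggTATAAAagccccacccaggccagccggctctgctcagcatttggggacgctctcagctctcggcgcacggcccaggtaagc
CDH2: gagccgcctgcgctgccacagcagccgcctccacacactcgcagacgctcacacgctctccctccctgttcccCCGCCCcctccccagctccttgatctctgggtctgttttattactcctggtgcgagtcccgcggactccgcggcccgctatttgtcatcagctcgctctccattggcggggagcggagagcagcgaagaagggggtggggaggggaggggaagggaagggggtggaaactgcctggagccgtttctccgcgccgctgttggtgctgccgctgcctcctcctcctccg
VIM: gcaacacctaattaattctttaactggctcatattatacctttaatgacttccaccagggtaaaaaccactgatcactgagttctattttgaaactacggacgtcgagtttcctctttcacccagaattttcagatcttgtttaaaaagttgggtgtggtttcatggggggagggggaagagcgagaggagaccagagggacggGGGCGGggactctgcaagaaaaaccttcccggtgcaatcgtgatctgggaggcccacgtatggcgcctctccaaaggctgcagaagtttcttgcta
ZEB1: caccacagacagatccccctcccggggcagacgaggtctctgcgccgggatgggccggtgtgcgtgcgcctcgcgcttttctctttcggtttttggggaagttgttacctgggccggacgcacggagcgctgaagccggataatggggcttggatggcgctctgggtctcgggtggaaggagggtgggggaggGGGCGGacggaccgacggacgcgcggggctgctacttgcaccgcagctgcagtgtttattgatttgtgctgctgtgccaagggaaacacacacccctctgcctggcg
FN1: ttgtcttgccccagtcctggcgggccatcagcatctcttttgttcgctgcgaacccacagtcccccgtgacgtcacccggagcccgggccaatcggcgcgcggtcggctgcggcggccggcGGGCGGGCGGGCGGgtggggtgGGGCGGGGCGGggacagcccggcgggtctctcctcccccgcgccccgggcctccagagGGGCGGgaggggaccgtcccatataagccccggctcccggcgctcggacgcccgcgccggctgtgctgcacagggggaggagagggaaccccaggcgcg

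All 300 bases of the BHLHE40, EGFR, ANXA2 and CDH2 windows lay under the gene's own promoter peak. All 300 bases of the ZEB1 window lay under a peak too, but that peak named the antisense gene ZEB1-AS1 and scored only 26. The VIM window had 0 bases under a peak, because its peak began at position 17228349, downstream of the window's end at 17228290. The FN1 window held 6 GC boxes, more than any other of the 7, and no peak lay over it.

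A promoter peak, meaning a peak centred within 1000 bp of the nearest start in the table, was present at 29 of the 35 named genes. That is 82.9% (exact Clopper-Pearson 95% interval 66.4 to 93.4), close to the 78.6% found over every protein-coding gene that the table names (13948 genes). With all 42 genes as the base the share was 69.0%, against 54.4% of 20056 RefSeq protein-coding genes. Being named at all was likewise more common, at 35 of 42 (83.3%) against 68.9% of RefSeq protein-coding genes. Intervals cover counting error only, and genes of 1 list are not replicates. The share also depends on the window, since within 500 bp it was 60.0%, against 70.6% of protein-coding genes.

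The highest promoter score per gene had a median of 84 over the 29 genes, with quartiles of 42 and 108, against a median of 63 over all protein-coding genes with a promoter peak, with quartiles of 40 and 106. Of the 29, 19 stood above the median of all genes and 10 at or under it; 8 exceeded the upper quartile and 5 fell short of the lower one. A promoter peak above the upper quartile of all peak scores, which is 49, was found at 20 of the 35 genes (57.1%), against 48.7% of named protein-coding genes. Among the 5000 highest-scoring peaks of the list the order of the medians turned round, with 126 over 10 genes, against 139 over all protein-coding genes.

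**Figure D1:**
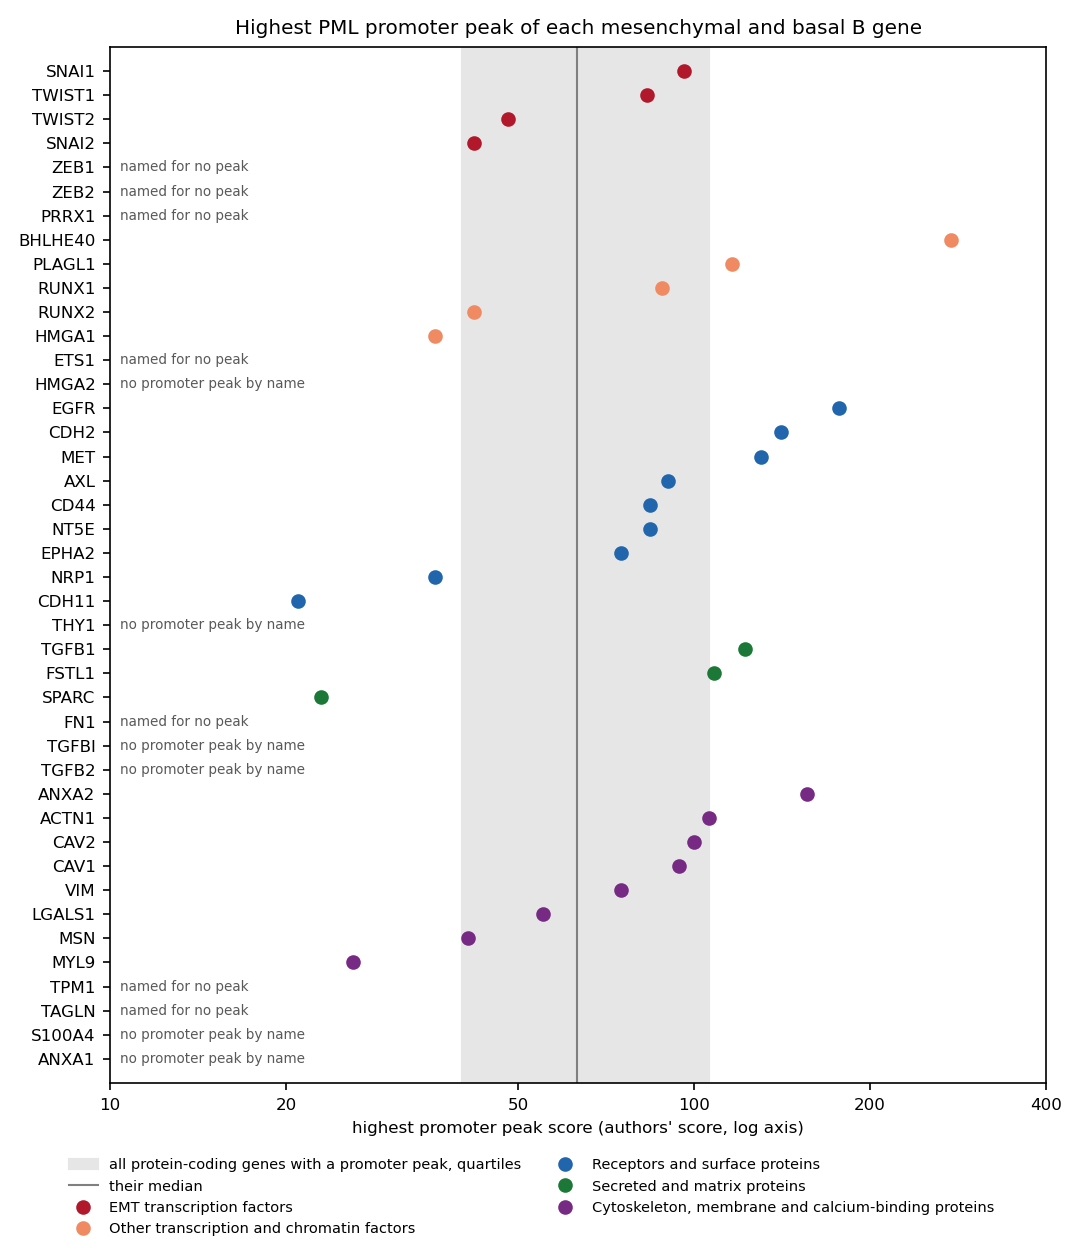
Highest PML promoter peak score (log axis) of each of the 42 genes, ordered by role and colour; the grey band is the range between the quartiles (40 to 106) and the line the median (63) of all protein-coding genes with a promoter peak. BHLHE40 stands highest at 275, CDH11 lowest at 21, and the 13 genes without a point have no promoter peak under their own name.

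Among the EMT factors, SNAI1, TWIST1, TWIST2 and SNAI2 had promoter peaks, and ZEB1, ZEB2 and PRRX1 were named for no peak. Thus 4 of 7 had a promoter peak, against 54.4% of RefSeq protein-coding genes, and 4 of 7 were named, against 68.9%. SNAI1, the zinc-finger repressor Snail, had the highest score of the group, 96, for a peak of 1098 bp at chr20:49982331-49983428 centred 101 bp upstream of the start. TWIST1, a basic helix-loop-helix factor, had a pair of peaks of nearly equal score on either side of its start. One, of 504 bp at chr7:19118049-19118552, scored 83 and was centred 664 bp upstream; the other, of 1420 bp at chr7:19116353-19117772 over the first exon, scored 82 and was centred 574 bp downstream. TWIST2, its close relative, had a peak of 758 bp with a score of 48 at chr2:238848011-238848768, 304 bp downstream. SNAI2, the related repressor Slug, had the lowest score of the group, 42, for a peak of 862 bp at chr8:48921297-48922158, 298 bp upstream. The median score of the group was 65.5, against 63 over all protein-coding genes with a promoter peak.

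Of the 27 peaks of the EMT factors, 5 were promoter peaks (18.5%), 5 lay inside the gene (18.5%) and 17 outside it (63.0%). Over all protein-coding genes these shares were 24.4%, 35.0% and 40.6%, so the promoter share was near the background. SNAI1 and SNAI2 had 10 peaks each, although both genes are short, at 5907 and 3832 bp. At SNAI1, 3 peaks lay inside the gene, scoring 52, 42 and 31, and the 6 outside lay 3697 to 27091 bp from the start with scores of 18 to 45. At SNAI2 all of the other 9 peaks lay outside the gene, 17443 to 89245 bp from the start with scores of 26 to 73. The highest of these, 339 bp at chr8:48890349-48890687 and 30911 bp downstream, scored 73, above the promoter peak's 42. TWIST1 had 2 distant peaks with scores of 48 and 21, at 127032 and 293556 bp from its start, both within introns of another gene and both over a repeat. TWIST2 had 2 peaks inside the gene, scoring 48 and 42.

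The other transcription and chromatin factors held the highest promoter score of all 42 genes, and 5 of the 7 had a promoter peak, against 54.4% of RefSeq protein-coding genes. BHLHE40, a helix-loop-helix repressor linked to the circadian clock and hypoxia, scored 275 for a peak of 2421 bp at chr3:4978207-4980627 centred 20 bp upstream of the start. That peak had rank 291 in the list, and 98.4% of protein-coding genes with a promoter peak, BHLHE40 included, scored at or below it. PLAGL1, an imprinted zinc-finger gene, had 2 promoter peaks at different starts, scoring 116 at chr6:144063780-144064692 (913 bp wide, 363 bp downstream) and 105 at chr6:144007892-144008776 (885 bp wide, 75 bp upstream). RUNX1, a core factor of blood development also active in breast epithelium, scored 88 and RUNX2, its bone-forming relative, 42; both peaks lay at starts inside the gene span. HMGA1, an architectural chromatin protein, had the lowest score of this group, 36, for a peak of 371 bp at chr6:34237317-34237687 centred 629 bp downstream. A wider and higher HMGA1 peak, of 1207 bp and with a score of 61, was centred 1337 bp upstream and so fell outside the promoter window, though part of it lay within 1000 bp of the start; counted by overlap, HMGA1 would score 61. HMGA2, its paralogue, narrowly missed the window too: its only peak, 1014 bp at chr12:65824967-65825980 with a score of 75, was centred 1013 bp downstream of the start. ETS1, a factor of invasive cells, was named for no peak.

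Receptors and surface proteins were all named in the table, and 9 of the 10 had a promoter peak, against 54.4% of RefSeq protein-coding genes. Their median score was 84. EGFR, the epidermal growth factor receptor, scored 177 for a peak of 1896 bp at chr7:55018417-55020312 centred 332 bp downstream of the start. CDH2, which encodes N-cadherin, scored 141 over 1487 bp at chr18:28176784-28178270, 397 bp upstream. MET, the receptor of hepatocyte growth factor, scored 130 over 1150 bp at chr7:116671720-116672869, 98 bp downstream. These 3 receptors and adhesion genes exceeded the upper quartile of all genes, and the next 4 lay within the quartiles: AXL, the GAS6 receptor, scored 90, the hyaluronan receptor CD44 and the ectonucleotidase CD73 (NT5E) 84 each, and the ephrin receptor EPHA2 75. AXL's 90 belonged to a start inside the gene; at the gene's outer start its peak scored 26. NRP1, a co-receptor of semaphorins and VEGF, scored 36, under the lower quartile. CDH11, a mesenchymal cadherin, had the lowest score of all 29 genes, 21, for a peak of 716 bp at chr16:65120907-65121622 centred 799 bp downstream. THY1, a surface marker of fibroblasts, had no promoter peak; its 4 peaks scored 17 to 21 and lay 45745 to 121578 bp upstream.

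Of the 6 secreted and matrix genes, 3 had a promoter peak, against 54.4% of RefSeq protein-coding genes, and the scores of these 3 ranged widely. TGFB1, the ligand that induces EMT, scored 122 for a peak of 1636 bp at chr19:41352548-41354183, over its 5′ UTR and 557 bp downstream of the start. FSTL1, a secreted glycoprotein of mesenchymal cells, scored 108 over 1534 bp at chr3:120450299-120451832, 73 bp upstream. SPARC, a collagen-binding matricellular protein, scored only 23 over 383 bp at chr5:151686823-151687205, 99 bp upstream, and its highest peak, with a score of 57, lay 10050 bp upstream. TGFBI, a matrix protein induced by TGF-beta, was named for 1 peak, with a score of 26 at 21932 bp upstream (chr5:136006923-136007190). TGFB2, the sister ligand of TGFB1, was also named for 1, with a score of 36 at 21043 bp upstream (chr1:218324069-218324413). FN1, which encodes fibronectin, was named for none.

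Among cytoskeletal, membrane and calcium-binding genes, 8 of 12 had a promoter peak, against 54.4% of RefSeq protein-coding genes, with a median score of 84.5. Role groups of this size were not compared with each other. ANXA2, a calcium-dependent phospholipid-binding protein, had the highest score, 156, and at 2773 bp (chr15:60396638-60399410, 38 bp upstream) the widest peak of the 162. The actin crosslinker ACTN1 scored 106 over 2605 bp, and the caveolar coat genes CAV2 and CAV1 scored 100 and 94, with a further CAV1 peak of 76 at a nearby start. VIM, which encodes vimentin, scored 75 for a peak of 1447 bp at chr10:17228349-17229795 centred 831 bp downstream, in the first intron. Lower scores belonged to LGALS1, a galectin, with 55, and MSN, which encodes the membrane linker moesin, with 41 at a start inside its span. MYL9, a regulatory light chain of myosin, had the lowest promoter score, 26, over 431 bp at chr20:36540828-36541258, 476 bp upstream. Its peak in the 3′ UTR, 972 bp wide at chr20:36550203-36551174, scored 69.

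The other genes of this role, TPM1, TAGLN, S100A4 and ANXA1, had no promoter peak under their own name. TPM1, which encodes tropomyosin, and TAGLN, which encodes the actin-binding protein transgelin, were named for no peak. S100A4, a calcium-binding protein of motile cells, was named for 1 peak of 786 bp at chr1:153547054-153547839, with a score of 42 and 1640 bp upstream. ANXA1, the paralogue of ANXA2, was named for 4 peaks, scoring 20 to 31 and lying 84759 to 389433 bp from its start, each over a repeat. Of the paralogous annexins, ANXA2 thus had the highest promoter score of this role, and ANXA1 had no promoter peak.

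Counting peaks of every kind, the median was 4 peaks per named gene, against 2 over all named protein-coding genes. Without promoter peaks the median was 2, against 1. Of the 162 peaks, 33 were promoter peaks (20.4%), 58 lay inside the named gene (35.8%) and 71 outside it (43.8%). For all protein-coding genes the same shares were 24.4%, 35.0% and 40.6%. A peak inside the gene was found at 19 of the 35 genes (54.3%, interval 36.6 to 71.2), against 42.4% of named protein-coding genes. A peak outside the gene was found at 24 of the 35 (68.6%, interval 50.7 to 83.1), against 45.7%. With the 34468 higher-scoring peaks alone, the share with a peak outside the gene was 43.8%, against 34.6%. The genes are also longer: the 35 named genes had a median length of 42544 bp, against 29061 bp over named protein-coding genes, and all 42 had 48269 bp, against 24092.5 bp over RefSeq protein-coding genes. The part of length in these counts was not tested. Per 100 kb of gene, and counting every peak inside it, the median density was 5.51 peaks over the 42, against 2.97 over RefSeq protein-coding genes. Among genes with at least 1 such peak it was 8.47 over 35 of the 42, against 6.52. These densities include promoter peaks, and a short gene reaches a high value with few peaks, as S100A4 did with 45.7 from 1 peak. They are therefore not a measure of peaks beyond the promoter.

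**Figure D2:**
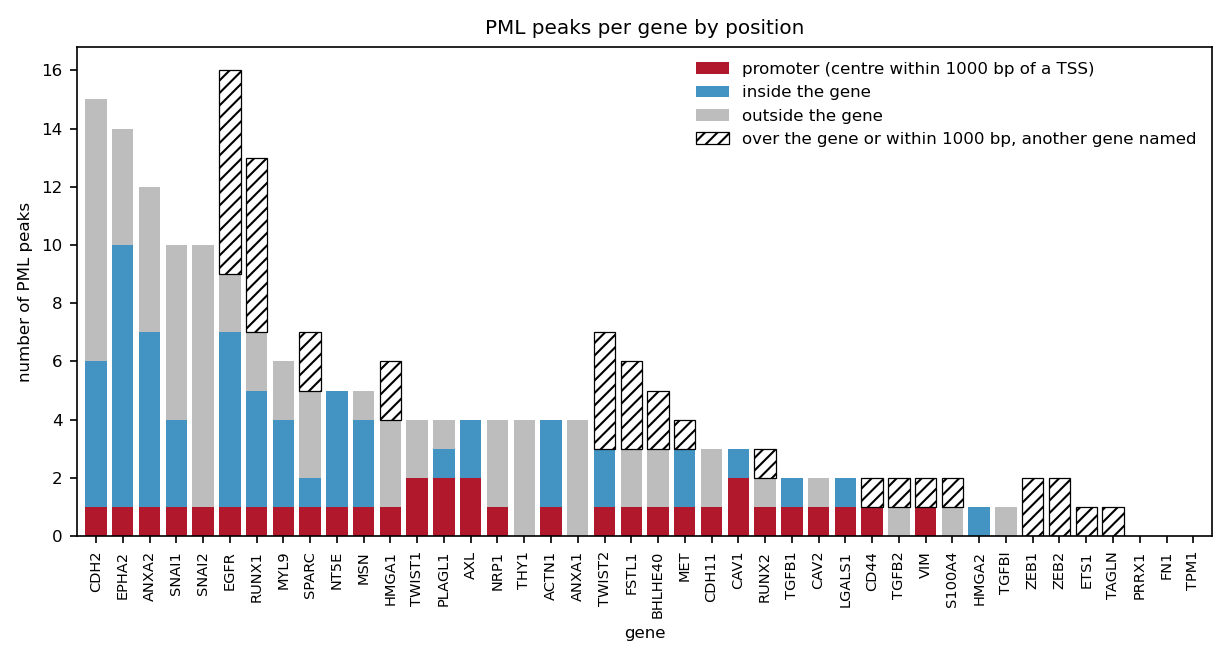
Number of PML peaks (vertical axis) for each of the 42 genes, split into promoter peaks, peaks inside the gene and peaks outside it that name the gene; hatched bars add peaks over the gene or within 1000 bp of it that name another gene. CDH2 leads with 15 peaks under its own name, and PRRX1, FN1 and TPM1 have no bar at all.

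Peaks were unevenly spread, with 5 genes holding 61 of the 162 (37.7%): CDH2 with 15, EPHA2 with 14, ANXA2 with 12, and SNAI1 and SNAI2 with 10 each. Such genes with 10 or more peaks made up 14.3% of the 35, against 7.32% of named protein-coding genes. The order depends on the gene named. Counting peaks of any name over the gene or within 1000 bp, EGFR had 14 and RUNX1 11. By that count EPHA2 had 10, ANXA2 7, CDH2 6, SNAI1 4 and SNAI2 1. EPHA2 had 9 peaks inside its gene of 31733 bp, 6 in introns and 3 in exons, with scores of 21 to 48. ANXA2 had 6 intron peaks scoring 25 to 64 and 5 peaks outside, 57104 to 182615 bp from its start, scoring 28 to 61. CDH2 had 5 peaks inside its gene and 9 outside, and those outside scored 17 to 57, reaching 707380 bp upstream. By contrast, CD44, VIM, HMGA2, S100A4, TGFBI and TGFB2 were named for 1 peak each.

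Peaks that named another gene, such as that of 158 just past BHLHE40, are left out of this ranking and given below. Under the genes' own names, the highest scores beyond promoters lay at distances from just outside the promoter window to 30911 bp. A CDH2 peak of 1164 bp at chr18:28175341-28176504, in the first intron and 1208 bp downstream of the start, scored 111 and was the highest. The HMGA2 peak of 75, the SNAI2 peak of 73 and the MYL9 peak of 69 followed. An EGFR peak of 1231 bp at chr7:55133187-55134417 and an ANXA2 peak of 484 bp at chr15:60375702-60376185, both in introns, tied at 64. Typical peaks beyond promoters were small: the median score was 31 both inside and outside the gene, as for all protein-coding genes, and the median widths were 404 and 380 bp, against 412 and 399 bp. Promoter peaks had a median width of 1172 bp, and those of all protein-coding genes 764.5 bp. Score and width went together over the 33 promoter peaks, with a Spearman rho of 0.592, against 0.661 over the 12106 of all protein-coding genes; all come from 1 merged list. In 21 of the 29 genes (72.4%) the promoter peak scored above every peak beyond it, against 84.6% of all protein-coding genes with a promoter peak. In 2 more, TWIST2 and LGALS1, it tied with a peak inside the gene, and with ties counted the shares were 79.3%, against 86.0%.

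**Figure D3:**
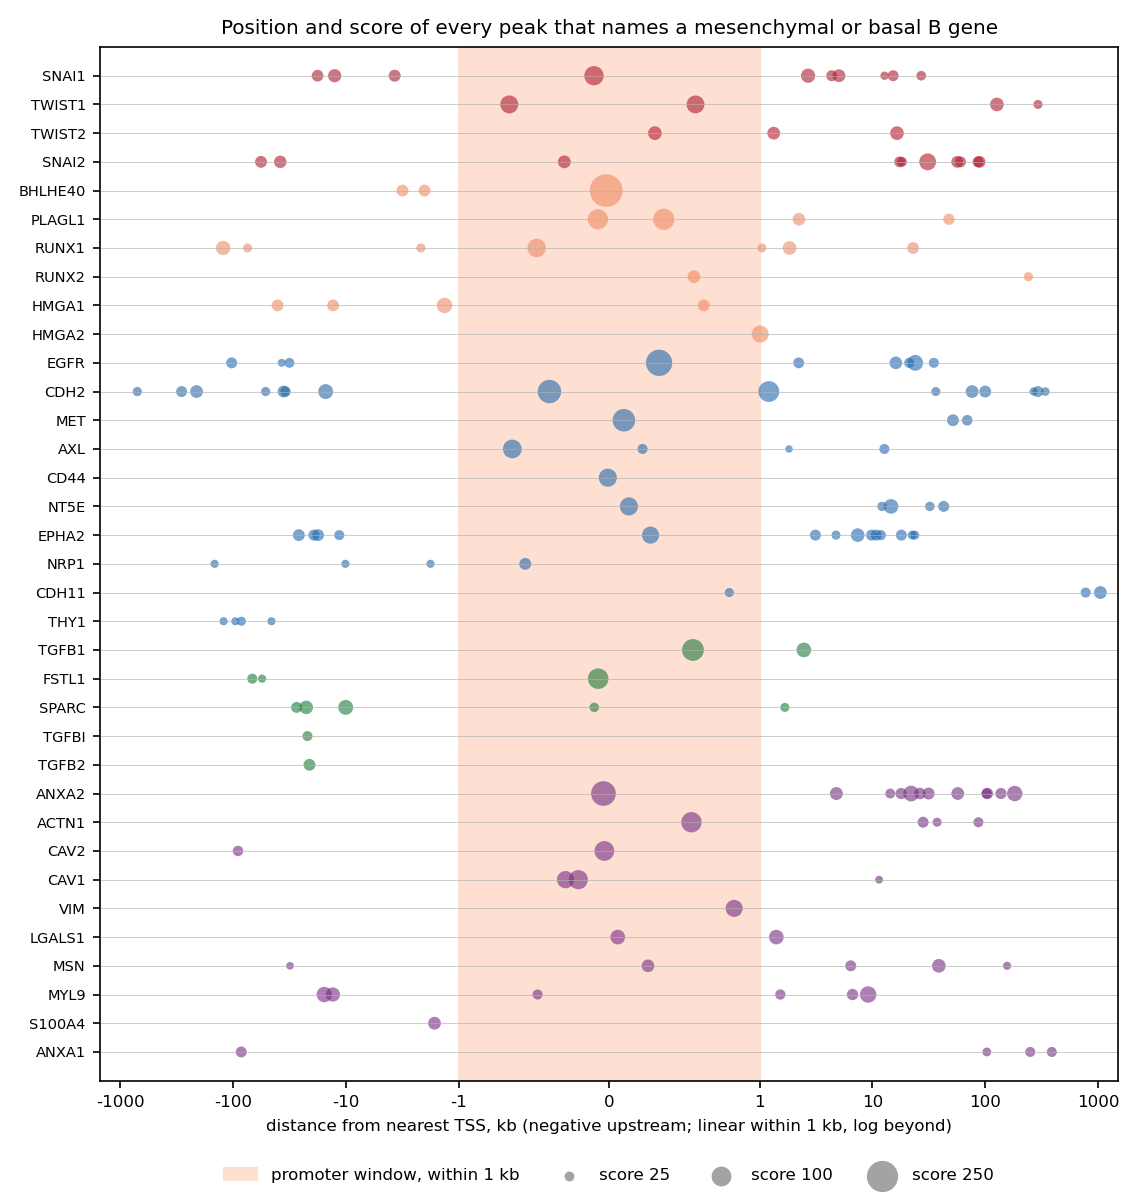
Distance from the nearest transcription start (horizontal axis in kb, linear within 1 kb and logarithmic beyond, negative upstream) of each of the 162 peaks, 1 row per gene, with the area of a point proportional to its score. The largest points lie in the shaded promoter window, such as BHLHE40 at 275 and EGFR at 177, and CDH11 has 2 peaks placed 778036 and 1049634 bp downstream.

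Promoter peaks of these genes were centred a little further from the start than usual. The median distance was 298 bp, against 182 bp for all protein-coding genes, and 9 of the 33 (27.3%) lay within 100 bp, against 30.9%. Of the 33, 17 were centred upstream of the start (51.5%), against 30.1% of the promoter peaks of all protein-coding genes. Peaks outside the gene lay at a median of 51518 bp, against 28798 bp, and 23 of the 71 (32.4%) lay more than 100000 bp from the start, against 17.8%.

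The nearest-gene rule of the table hides peaks that lie over these genes, since 38 further peaks at 17 of the genes named another gene. Of the 38, 34 named a gene that is not protein-coding, such as an antisense or small RNA. Neither count was made over all protein-coding genes, so whether such peaks are more common here is unknown. Counting peaks whatever gene they named, 36 of the 42 (85.7%) had a peak over the gene or within 1000 bp of it, against 72.9% of RefSeq protein-coding genes. Counting any peak that overlapped the 1000 bp on either side of a RefSeq start, the count was 25 of 31 genes (80.6%), against 65.1%. These are the genes for which a promoter window was at hand. The 6 genes with no peak over them under any name were the homeobox EMT factor PRRX1 along with FN1, TPM1, TGFBI, ANXA1 and THY1.

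Several genes without a promoter peak under their own name had such a peak. The ZEB1 start region held the ZEB1-AS1 peak of 839 bp at chr10:31319830-31320668, with a score of 26, and a further peak of 17 inside the gene. ZEB2 held 2 peaks inside the gene that named ZEB2-AS1, scoring 61 at chr2:144497003-144497353 (351 bp wide) and 47 at chr2:144516637-144517603 (967 bp wide). At ETS1 a peak of 392 bp at chr11:128522304-128522695, with a score of 61, named MIR6090 and was annotated to the start of an ETS1 transcript. TGFB2 had a peak of 75 at chr1:218345765-218346166 (402 bp wide) that named TGFB2-AS1, centred 629 bp from a TGFB2 start. S100A4 had a peak of 57 at chr1:153544561-153546140 (1580 bp wide), centred 456 bp from its start, that named an uncharacterised RNA gene. At TAGLN a single intron peak scored 17.

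Genes with a promoter peak of their own had such peaks too. Inside EGFR, 7 peaks named EGFR-AS1, with scores of 13 to 93, and the highest of them lay at chr7:55160773-55161602. Inside RUNX1, 6 peaks named LINC01426 or RUNX1-IT1, with scores of 17 to 83. A peak of 158 at chr3:4985709-4987384, just past the end of BHLHE40, named BHLHE40-AS1. Inside RUNX2 a peak of 61 named SUPT3H, a neighbouring protein-coding gene.

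CAV2, CAV1 and MET are neighbours on chromosome 7, in a stretch of 299 kb from 116499738 to 116798377. The stretch held 11 peaks, 7 of which named 1 of the 3 genes. The promoter peaks of CAV2, CAV1 and MET, scoring 100, 94 and 130, were the highest of the stretch, and the space between CAV1 and MET held 3 peaks that named the RNA gene LINC01510, scoring 60, 55 and 36. AXL and TGFB1 also lie near each other, in 135 kb of chromosome 19 with 12 peaks, 6 of which named AXL or TGFB1. Genes that share a neighbourhood in this way are not independent points.

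**Figure D4:**
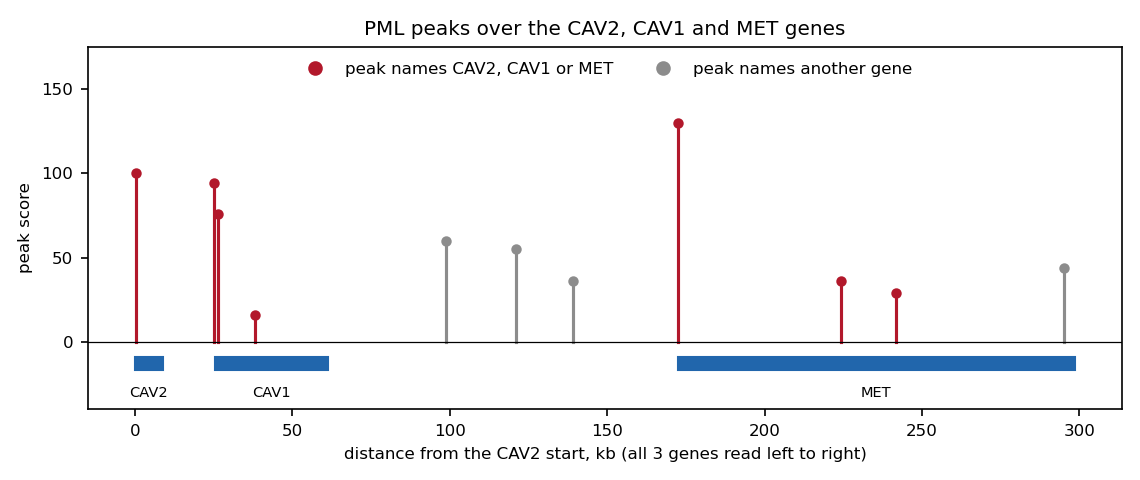
Score (vertical axis) of each PML peak along the stretch of CAV2, CAV1 and MET, by distance in kb from the CAV2 start; boxes below show the gene spans, red peaks name 1 of the 3 genes and grey peaks another gene. The MET promoter peak (130) is the highest, followed by those of CAV2 (100) and CAV1 (94).

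For scale, 3 further lists of genes were counted in the same way, without a test. They too were chosen with earlier results of these data known. Luminal and epithelial genes were named in the table for 26 of 40, and 25 of these had a promoter peak (96.2% of named and 62.5% of all). The median promoter score was 84 in the mesenchymal and basal B genes, against 40 in the luminal genes. The highest luminal scores belonged to GRHL1, an epithelial grainyhead factor, with 187, and EPCAM, an epithelial adhesion protein, with 142. A peak inside the gene was found at 54.3% of the named mesenchymal and basal B genes, against 30.8% of the named luminal genes. A peak outside the gene was found at 68.6% of the named mesenchymal and basal B genes, against 26.9% of the luminal ones. Gene length was not compared between the lists, and its part in these shares was not tested. TGF-beta receptors, SMADs and ligand-handling genes were named for 26 of 26, and 25 had a promoter peak (96.2%), with a median of 68; SMAD1, a BMP signal transducer, led with 163, followed by the corepressor TGIF1 with 160. The list of other mesenchymal matrix and protease genes has 27 entries for 26 genes, since CTGF is an older symbol of CCN2. Of these, 20 were named, and 18 of these had a promoter peak (90%), with a median of 94.5. Their highest scores were those of PDGFRA, a growth factor receptor of mesenchymal cells, with 214 and PLAU, the urokinase gene, with 199. Peaks inside and outside the gene were found at 55.0% and 50% of that list.

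**Figure D5:**
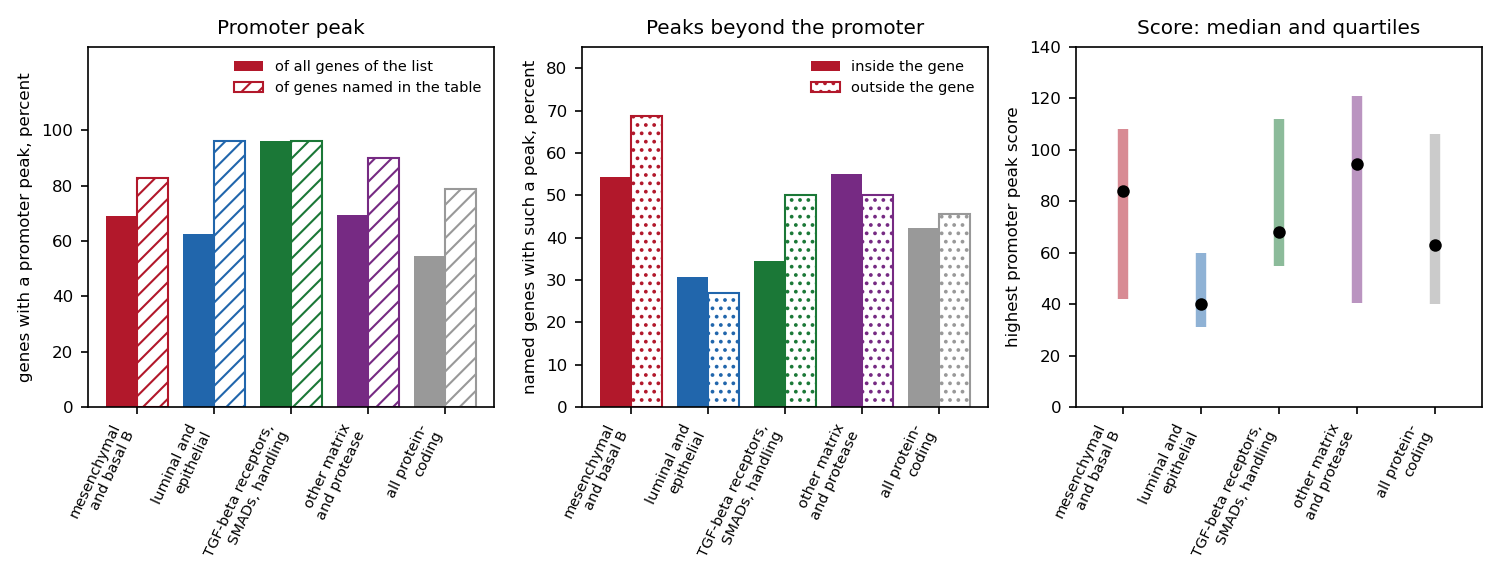
Left, percent of genes with a promoter peak, of all genes of a list (filled) and of those named in the table (hatched); middle, percent of named genes with a peak inside (filled) or outside (dotted) the gene; right, median (dot) and quartiles (bar) of the highest promoter score. The mesenchymal and basal B genes (red) have the highest share with a peak outside the gene, 68.6%, and a median score of 84, and luminal genes (blue) the lowest median, 40.

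Promoter windows like those printed above were at hand for 31 of the 42 genes. Where a gene has several, that of its outermost start was used for counts, or the first listed where none is outermost. ZEB1 was thus counted by another of its 7 windows. Their median GC content was 67.0%, against 62.7% in 15843 protein-coding genes, and the median ratio of observed to expected CpG was 0.71, against 0.761. The 22 with a promoter peak under their own name had a median GC content of 67.7% and the 9 without one 58.3%. Over all protein-coding genes the medians were 66.3% with and 57.0% without. Of the 9, ZEB1 (58.3%), TGFB2 (51.7%) and S100A4 (60.7%) had a peak near a start that named another gene. This split, here and for the CpG ratio, therefore follows the gene named and not every peak at a start. The ratio of observed to expected CpG differed less within the list, at 0.744 with and 0.688 without a peak, against 0.838 and 0.491 over all protein-coding genes. Across the 22 windows the CpG ratio and the promoter score had a Spearman rho of 0.345, against 0.179 across 8917 genes, points that share 1 merged list. The score is the highest at any start, so window and score can belong to different starts of a gene. AXL, MSN and RUNX2, with scores at starts inside the gene and several windows each, had low ratios of 0.216, 0.289 and 0.147. The same limit holds for the medians with a promoter peak.

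Motifs in these windows were counted as letters only, and a match is not evidence of a bound site. The GC box GGGCGG, searched on both strands, was present in 24 of 31 (77.4%), against 58.4% of 15843 windows. The TATA box TATAAA, on the gene's strand, was present in 4 (12.9%, against 6.96%), those of TGFB2, S100A4, ANXA1 and ANXA2. The AP-1 motif TGACTCA, on both strands, was present in 2 (6.45%, against 3.64%), those of RUNX2 and ANXA2. The E-box CACCTG, which SNAI and ZEB proteins bind, was present on either strand in 3 (9.68%, against 19.8%), those of ZEB1, AXL and S100A4. The letters ACTACA, the core of the RONIN motif, were present in 0 windows, against 8.51%. No motif of this set overlaps another by its letters in the printed windows except repeated GC boxes, as in the runs of ANXA2 and FN1.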

How the data were processed

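PML ChIP-seq was done in MDA-MB-231 cells with 2 PML and 2 input libraries, merged by the authors per the labels. The deposited peak table gives each peak an authors' score of unstated scale, used here for ranking only, and the authors' distance to the nearest transcription start in bp. Tools listed in the submitters' processing notes are HOMER 4.11.1, MACS2 2.1.1.20160309, Picard 2.0.1, BWA 0.7.12 and Trimmomatic 0.36, with the hg38 build; settings are not given in the sources used here, and read depth is unknown.

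Rows naming a gene were taken as its peaks: promoter peaks within 1000 bp of the nearest start, gene body peaks centred inside the RefSeq span (GRCh38.p14), and the rest outside the gene. The genes, roles and comparison lists were chosen with earlier results of these data known. With 1 merged list no test was made; shares stand beside those of all protein-coding genes, with exact Clopper-Pearson intervals for the main ones. Genes named with positions are the 8 highest promoter scores, all EMT factors, the extremes of each role, genes without a promoter peak, the 5 with the most peaks and the 5 highest peaks beyond promoters. Counting was tested on simulated peaks. Alternatives covered the promoter window, annotation class, score threshold, base set and gene assignment. Python 3.11.15, numpy 2.4.6, pandas 2.3.3, scipy 1.17.1 and matplotlib 3.10.9 were used.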

Additional observations from a re-analysis of the deposited data

How the results depend on the processing

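Of 35 alternative values, 18 stayed inside the 95% interval of the value they replace and 17 did not. The cause of each move was not tested. A change of window, class or score threshold also moved the shares over all protein-coding genes, and peaks per 100 kb are another unit than peaks per gene. The tally therefore does not measure whether a contrast with all genes holds. With a 500 bp promoter window, 60.0% of named genes had a promoter peak, against 70.6% of protein-coding genes. Promoter peaks then made up 14.2% of peaks, against 20.8%, and with 5000 bp they made up 35.2%, against 36.7%. With the table's promoter annotation class in place of distance, 57.1% of genes had a promoter peak, against 46.2%. By that class 13.0% of peaks were promoter peaks, against 13.7%. In the 34468 higher-scoring peaks, 43.8% of genes had a peak outside the gene, against 34.6%. The median there was 2 peaks per gene, against 1, and 35.8% of peaks were promoter peaks, against 36.9%. Among the 5000 highest-scoring peaks, 10 of the genes were named and 100% of them had a promoter peak, against 86.9%. Their median score was 126, against 139. A peak inside the gene was found at 10.0%, against 10.1%, and outside it at 0.0%, against 11.4%. The median was 1 peak per gene, as for all protein-coding genes, and 91.7% of peaks were promoter peaks, against 78.3%. Counting peaks whatever gene they named, 23 of the 31 genes with a promoter window at hand (74.2%, against 39.4%) had 1 inside the gene. The density was 5.51 peaks per 100 kb of gene, against 2.97, in place of a median of 4 per gene, against 2. By promoter annotation of any transcript of the gene, which was added after the data were seen, 52.4% of all 42 genes had a promoter peak, against 35.2%. No paired analysis was possible because the authors merged the duplicates into 1 list. Unknown depth and an unknown peak threshold limit every absence above: a gene without a peak is one with no peak called in this list.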

Other observations

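Repeats were named at many of the peaks outside these genes. A repeat stood at 38 of the 71 (53.5%), against 34.6% of such peaks of all protein-coding genes, and at none of the 33 promoter peaks, against 0.719%. Long terminal repeats, the remains of endogenous retroviruses, accounted for 18 (25.4%, against 14.0%) and LINE elements, which are retrotransposons, for 12 (16.9%, against 11.7%). CDH2 held 8 of the repeat peaks, among them LTR40a, MSTA, HERVH48-int, THE1D and LTR9B elements, and ANXA1 held 4. Both peaks outside CDH11, with scores of 42 and 26, lay over LTR12C, as did 1 outside NRP1 with a score of 17. Inside the genes, 9 of 58 peaks (15.5%) named a repeat, against 22.7% over all protein-coding genes, and none of the 58 was a long terminal repeat, against 6.28%. At the peaks of these genes a repeat or CpG label stood only where the annotation was intron or intergenic. The lack of repeat labels at promoter peaks therefore does not show that no repeat lies there.

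CpG islands were named at 6 of the 33 promoter peaks (18.2%), against 14.9% over all protein-coding genes, and at 7 of the 71 outside the gene (9.86%), against 5.43%. All 6 promoter peaks with this label were annotated as intron, and none annotated to a start, exon or UTR carried it. The label thus does not count the promoters that lie in CpG islands. Scores came in steps: of the 162 peaks, 14 scored 26, 17 scored 31, 16 scored 36 and 9 scored 42, so ranks among weak peaks are tied.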
